A study of Mus musculus with 2 samples.

Results

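Zfp genes are the mouse genes named for zinc finger proteins, and their mRNAs were examined as hosts of small RNA in testis. A host was a protein-coding gene of the GENCODE M21 annotation with a symbol of Zfp followed by digits and with at least 100 reads of 24 to 30 nt, summed over both libraries, that matched one of its transcripts exactly in sense. Reads that matched several genes were divided equally among them. Of 365 Zfp genes, 241 reached the minimum, 124 did not, and 2 of the latter (Zfp616 and Zfp648) had 0 such reads. These 241 genes were among 9288 protein-coding hosts in 21951 protein-coding genes. The members were thus chosen by their summed 24 to 30 nt reads, and their levels are given as a description. Around the minimum, Zfp459 with 102 reads and Zfp109 with 101.5 lay just inside it, while Zfp932 with 97.9 and Zfp811 with 97.3 lay just outside.

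The study compared testes of Tdrkh-/- mice with those of Tdrkh+/- controls, which keep 1 intact allele, at 11 days after birth. Each genotype had 1 small RNA library, made from 5 pooled pairs of testes. Exons 2 to 4 of Tdrkh, with the start codon in exon 2, had been floxed and excised with EIIa-Cre on a C57Bl6/129 background, and the transgene was bred out, so the null allele is present in every cell and the control also carries 1 copy of it. With 1 library per genotype no difference has a replicate check and no test was run. Intervals are 95%, cover counting error only and treat each read as a separate draw. PCR reads that carry no molecular identifiers cannot be counted as separate molecules, so for molecules the intervals may be too narrow. In whole testes, fewer germ cells of a stage and less small RNA per cell cannot be told apart.

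The libraries held 60973266 reads in Tdrkh-/- and 43172204 in Tdrkh+/-. Exons 2 to 4 of Tdrkh (chr3:94422802-94424690, GRCm38) gave 0 reads in sense from the Tdrkh-/- library and 17 from the control, while the other exons had 784 and 1115. Counts were scaled to reads of microRNA genes, 2482747 and 2359299. Of the tissue microRNAs examined, the testis microRNAs Mir470 (185237 and 126507 reads) and Mir871 (118898 and 111883) were abundant in both libraries, the liver microRNA Mir122 had 1 and 0 reads, and Mir124a-1 of brain and Mir208a of heart had 0 in both, while Mir133a-1 of muscle and heart had 44.5 and 48 reads and Mir9-1 of brain 7.67 and 14.3. The other testis microRNAs examined had fewer reads: Mir741 1965 and 1627, Mir463 880 and 1216, and Mir883a 128 and 226. Mir202 of Sertoli cells had 790 and 668 reads, and Mir1a-1 of heart and skeletal muscle 0.5 and 3. Mir34c, a microRNA of meiotic and later germ cells, had 119 and 549 reads. Its part in the results was not tested.

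Piwi-interacting RNAs (piRNAs) are germline small RNAs that begin mostly with U and guide PIWI proteins. In the testis before meiosis many are cut from the 3' untranslated regions of mRNAs, and others come from transposons. A long single-stranded precursor is first cut to give the 5' end, a PIWI protein binds it, and the 3' end is then trimmed to length. Tdrkh is a Tudor-domain protein of the mitochondrial surface that binds PIWI proteins and serves in this trimming. Most Zfp proteins are DNA-binding proteins with an array of C2H2 fingers, in which a pair of cysteines and a pair of histidines hold a zinc ion. Those that begin with a KRAB box recruit the corepressor Trim28 and the histone methyltransferase Setdb1, and many of them silence transposons. The family is large, recently duplicated and arranged in clusters, so its members share sequence.

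A C2H2 finger pattern was found in 234 of the 241 members and a KRAB box pattern in 109 (of 186 among all Zfp genes). Finger number had a median of 11 and reached 37 in Zfp142. The 7 members with no finger found included Zfp36, or tristetraprolin, an mRNA decay factor with fingers of another type, and Zfp185, a LIM-domain protein. Chromosome 7 held 64 members of 89 Zfp genes there, and 105 members lay within 100 kb of another member.

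The 5' ends that carried the most 24 to 30 nt reads in the 8 most abundant members are shown first, since the length change is read at them. Each line is the most read sequence of that 5' end, written 5′ to 3′ in lower case with the 5' base in capitals (T stands for the U of the RNA).
Zfp740: Ttcagtctcagagaaccgaccttggctcc
Zfp346: Taaaaaggaatttagaactggtgcaggt
Zfp866: Tagtaagatccagtactgtagccacccg
Zfp398: Tgagcacctgagtctaatctgtagaacc
Zfp652: Tactaaacgcagaactaaaggtgaccctcc
Zfp65: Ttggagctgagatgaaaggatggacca
Zfp369: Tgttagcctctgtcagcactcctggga
Zfp317: Tcactttgtagaccaggctggccccgcc
All 8 began with T, and 7 of them lay in the 3' untranslated region, in the last exon of the gene. In GRCm38 they are at chr15:102213722-102213750 (+) for Zfp740, chr13:55133200-55133227 (+) for Zfp346, chr8:69762050-69762077 (-) for Zfp866, chr6:47870660-47870687 (+) for Zfp398, chr11:95771122-95771151 (+) for Zfp652, chr13:67706590-67706616 (-) for Zfp65 and chr9:19648462-19648489 (+) for Zfp317. The Zfp369 sequence, at chr13:65303454-65303480 (+), lay in a single-exon transcript of that gene with no coding sequence. The Zfp65 sequence occurred in 8 genes in sense and the other 7 in 1 gene each.

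The first question was whether Zfp mRNAs gave fewer piRNA-sized reads without Tdrkh. At 24 to 30 nt the members together had 125072 reads in Tdrkh-/- and 292687 in Tdrkh+/-, a ratio per microRNA read of 0.406 (0.403 to 0.409). At 31 to 37 nt they had 312382 and 67536 reads, a ratio of 4.40 (4.36 to 4.43). The same ratios over all protein-coding hosts were 0.407 and 4.40, so the family as a sum lay at the level of the other hosts. Reads were thus fewer at the piRNA size and more numerous above it. Lengths peaked at 32 nt in the Tdrkh-/- library and at 28 nt in the control (32 and 27 nt over all hosts), and the mean length was 33.03 and 28.8 nt.

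**Figure D1:**
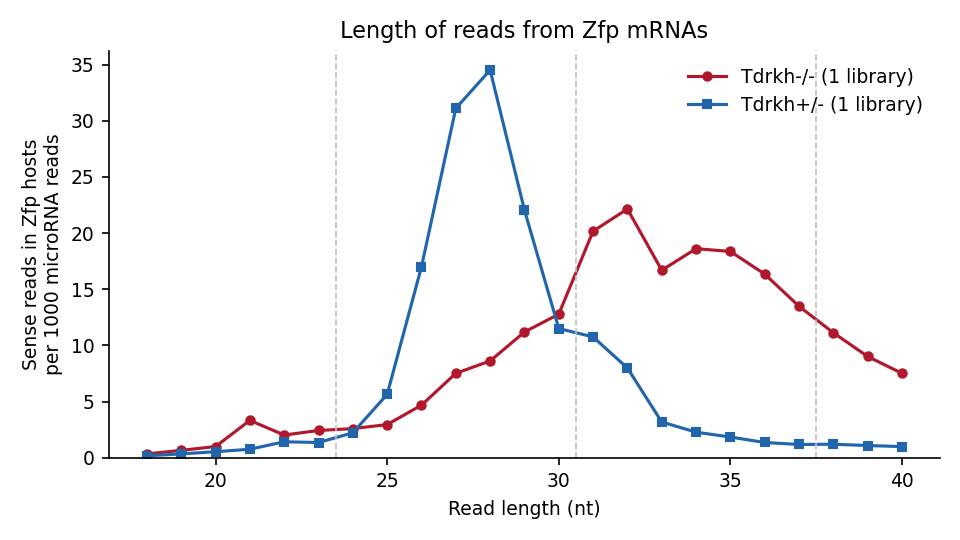
Sense reads of the 241 Zfp hosts at each length from 18 to 40 nt (x axis), per 1000 microRNA reads (y axis), with 1 point per library and length; dashed lines bound the 24 to 30 and 31 to 37 nt windows. The Tdrkh+/- library peaks at 28 nt with 21.5% of its reads, the Tdrkh-/- library at 32 nt with 10.4%, and the latter spreads to the 40 nt limit of the table.

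Most members went the way of the sum. At 24 to 30 nt, 170 of 241 (70.5%) were at least 2-fold lower in Tdrkh-/-, beside a background of 71.1% over all hosts, and 5 were at least 2-fold higher (background 2.51%). At 31 to 37 nt, 212 (88.0%) were higher by 2-fold or more (background 71.8%) and 1 was at least 2-fold lower (background 1.03%). Reads were lower at 24 to 30 nt and higher at 31 to 37 nt in 221 members (91.7%, background 88.4%). The ratio of long (31 to 37 nt) to short (24 to 30 nt) reads, which needs no scaling between libraries, was higher in Tdrkh-/- in 241 of 241 members (background 98.9%), with medians of 2.31 in Tdrkh-/- and 0.212 in Tdrkh+/-. When each distinct sequence was counted once, 62 members (25.7%, all hosts 12.2%) were 2-fold higher at the longer size and the summed ratio there was 1.61.

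The median log2 ratio of the members was -1.37 at 24 to 30 nt, with quartiles of -1.85 and -0.87, and 2.08 at 31 to 37 nt, with quartiles of 1.42 and 2.65. The medians over all hosts were -1.48 and 1.51. The members' larger share of 2-fold higher genes at 31 to 37 nt was seen at both levels of abundance: 86.2% against 67.1% of other hosts among genes under 500 reads, and 90.1% against 78.2% among genes of 500 reads or more. It was also seen among genes with more than 50% of their reads in the 3' untranslated region (90.3% against 80.8%) and in the coding region (83.8% against 64.4%). No test was made of these differences. Scaling to all reads listed in a library in place of microRNA reads lowers every log2 ratio by 0.42, and scaling to transcript-matching reads lowers it by 0.57; the medians of members then became -1.79 and 1.66, and -1.94 and 1.51.

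**Figure D2:**
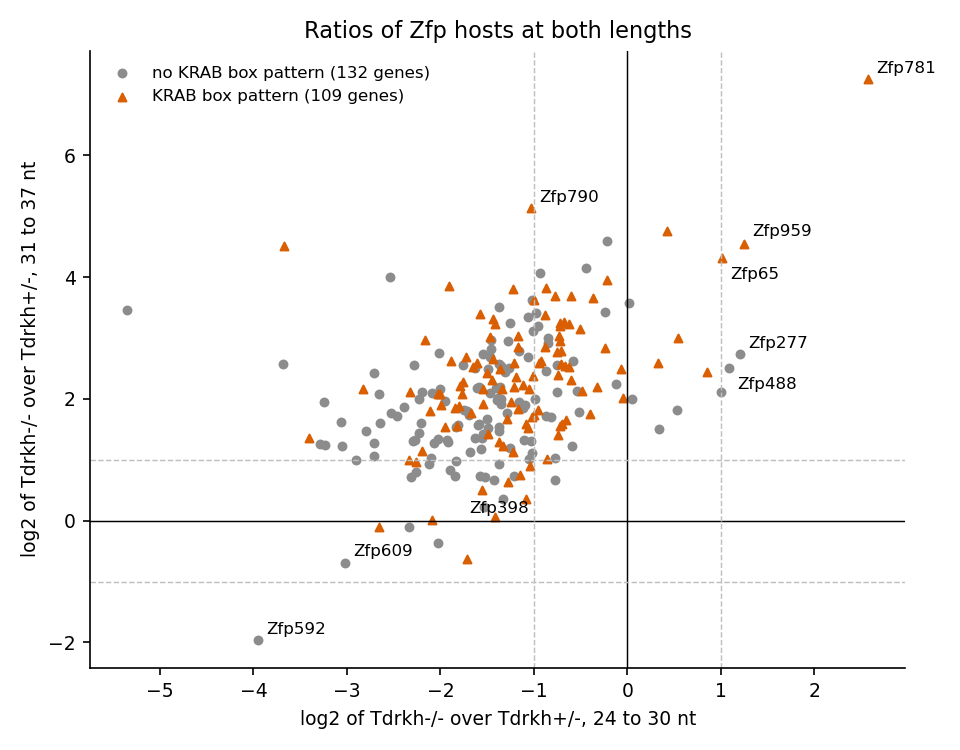
Each point is 1 of the 241 Zfp hosts, with the log2 ratio of Tdrkh-/- to Tdrkh+/- reads per microRNA read at 24 to 30 nt (x axis) and at 31 to 37 nt (y axis); triangles are genes with a KRAB box pattern and dashed lines mark 2-fold. Most points lie at the upper left, Zfp592 stands alone below the 2-fold line at both lengths, and 5 genes including Zfp781 and Zfp65 lie past 2-fold on the upper right.

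The 10 most abundant members held 42.6% of all member reads of 24 to 30 nt. The most abundant was Zfp740, with 5488 reads in Tdrkh-/- and 28689 in Tdrkh+/- at 24 to 30 nt and 5363 and 1541 at 31 to 37 nt, log2 ratios of -2.46 (-2.50 to -2.42) and 1.73 (1.64 to 1.81). Zfp346, a zinc finger protein that binds double-stranded RNA, had 6602 and 17392 reads at 24 to 30 nt and 21884 and 3241 at 31 to 37 nt, log2 ratios of -1.47 and 2.68. Zfp866, a KRAB gene, had 6255 and 15919 reads at 24 to 30 nt and 16412 and 1652 at 31 to 37 nt, log2 ratios of -1.42 and 3.24. In all 3 genes the Tdrkh+/- library was the higher at 24 to 30 nt and the Tdrkh-/- library at 31 to 37 nt.

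Zfp652, which encodes a transcriptional repressor, had 3197 and 14081 reads at 24 to 30 nt and 8180 and 2543 at 31 to 37 nt (log2 ratios of -2.21 and 1.61). Zfp451, the gene of a SUMO ligase, had 3214 and 7915 reads, then 5572 and 892 (log2 ratios of -1.37 and 2.57). Zfp142 had 2099 and 9589 reads, then 3662 and 2004 (log2 ratios of -2.27 and 0.80). These 3 followed the same pattern, and in Zfp142 the excess above 30 nt was under 2-fold and turned to a log2 ratio of -0.091 by distinct sequence.

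Zfp398 departed from it at the longer size. It had 5379 reads in Tdrkh-/- and 15041 in Tdrkh+/- at 24 to 30 nt (log2 ratio -1.56), but 28087 and 18807 at 31 to 37 nt (log2 ratio 0.51), so the control library already held more long than short reads of this mRNA. A single 5' end, the one printed above, carried 43.6% of its 24 to 37 nt reads, with 392 and 2709 reads of 24 to 30 nt and 12617 and 13639 reads of 31 to 37 nt. Its most frequent length was 32 nt in both libraries. Without this end the log2 ratio of Zfp398 at 31 to 37 nt was 1.51 and that at 24 to 30 nt -1.38.

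Zfp317, Zfp369 and Zfp65 were the abundant members that were not 2-fold lower at 24 to 30 nt. Zfp317 had 4839 and 6892 reads at 24 to 30 nt (log2 ratio -0.58) and 2748 and 422 at 31 to 37 nt (2.63). Its printed 5' end held 37.2% of its 24 to 37 nt reads and was mostly short, with 2302 and 2950 reads of 24 to 30 nt and 208 and 78 of 31 to 37 nt. The whole read matched 1 gene, but its first 20 nt occurred in 487 genes in sense and 449 in antisense.

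Zfp369, a KRAB gene whose protein is a relative of the neurotrophin receptor interactor Zfp110, had 7157 and 5071 reads at 24 to 30 nt (log2 ratio 0.42, which is -0.15 per transcript-matching read) and 13276 and 465 at 31 to 37 nt (4.76). Of its 24 to 30 nt reads, 75.7% lay on a transcript with no coding sequence, and 17.99% of its 24 to 37 nt reads were shared with Vmn2r60, a vomeronasal receptor gene. At its most read 5' end over 24 to 37 nt the counts were 779 and 41 of 24 to 30 nt and 7012 and 11 of 31 to 37 nt, the latter almost wholly from Tdrkh-/-. That end occurs in 2 genes, so 3506 of the 7012 long reads count to Zfp369.

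**Figure D3:**
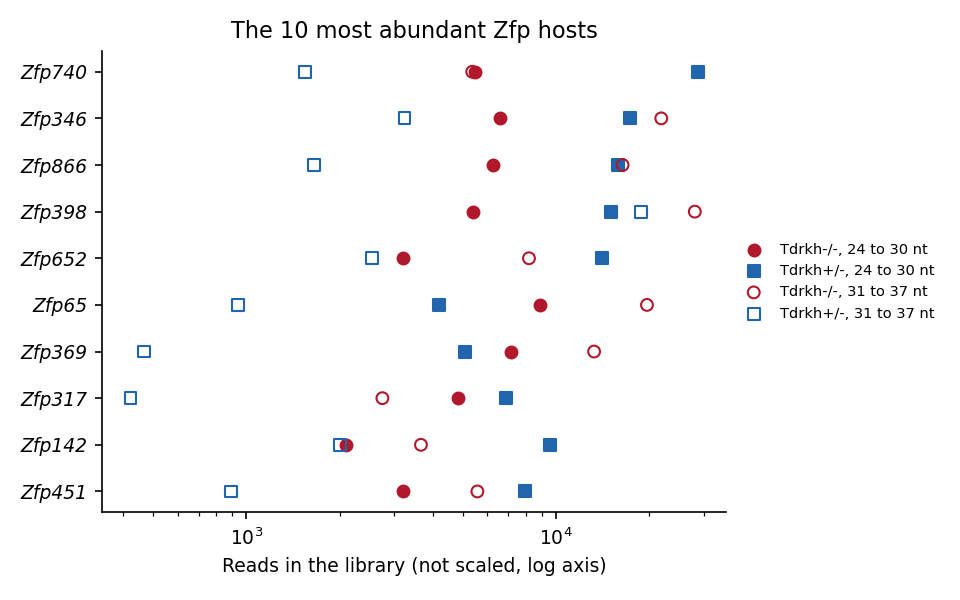
Reads of the 10 most abundant Zfp hosts in each library (log x axis, not scaled between libraries), with 24 to 30 nt as filled and 31 to 37 nt as open symbols and no error bars, since each symbol is 1 library. In Zfp398 both open symbols lie to the right, at 28087 and 18807 reads, and in Zfp65 and Zfp369 the filled Tdrkh-/- symbol lies right of the filled Tdrkh+/- one.

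The 5 members that were at least 2-fold higher in Tdrkh-/- at 24 to 30 nt were also higher at 31 to 37 nt (background for both lengths 2.25%). Zfp65, a KRAB gene, had 8910 and 4202 reads at 24 to 30 nt (log2 ratio 1.01, 0.96 to 1.06) and 19675 and 941 at 31 to 37 nt (4.31). Only 49.1% of its 24 to 30 nt reads matched no other gene, and on those the log2 ratio at 24 to 30 nt was 0.48. The leading 5' end of Zfp65 over 24 to 37 nt, with 24.1% of those reads, occurs in 1 gene. It had 1046 and 55 reads of 24 to 30 nt and 6768 and 272 of 31 to 37 nt. Without this end the log2 ratio of Zfp65 was 0.85 at 24 to 30 nt, below 2-fold, and 4.20 at 31 to 37 nt. The printed Zfp65 sequence is the shared one, and its 5' end had 32607 and 4970 reads of 24 to 30 nt over all genes that hold it, but 598 and 11 of 31 to 37 nt.

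Zfp781, with a KRAB box and no finger found in its annotated protein, had the highest ratios of all members at both lengths: 920 and 147 reads at 24 to 30 nt (log2 ratio 2.57, 2.32 to 2.83) and 6555 and 40.7 at 31 to 37 nt (7.26, 6.81 to 7.73). None of these reads was its own. All were shared with Gm3055, and its leading 5' end (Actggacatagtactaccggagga, shown because 73.0% of its 24 to 37 nt reads start there) occurred in 12 genes and lay in the 5' untranslated region of Zfp781 at chr10:81910935-81910958 (-). This end is one of the few that began with A, and its lengths peaked at 36 nt in Tdrkh-/-.

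Zfp277 had 1249 and 515 reads at 24 to 30 nt (log2 ratio 1.21) and 3384 and 482 at 31 to 37 nt (2.74), and 71.0% of its 24 to 30 nt reads were repeat-shared, that is, their sequence occurred in more than 20 genes on 1 strand. Its own reads had a log2 ratio of 0.24 at 24 to 30 nt. Zfp488, a regulator of oligodendrocyte differentiation, had 1427 and 640 reads (1.08) and 1066 and 178 (2.51), with 49.8% of the shorter reads in 1 gene and a log2 ratio of 1.03 on those. Zfp959, which lies under 500 reads and is named because it completes the 5, had 219 and 87.7 reads (1.24) and 107 and 4.33 (4.55). In 4 of the 5, at most 49.8% of the short reads matched 1 gene, while in Zfp959 95.9% did. Counted by distinct sequence in place of reads, the log2 ratios of Zfp65, Zfp781, Zfp277 and Zfp488 at 24 to 30 nt turned to -0.86, -0.94, -0.74 and -0.65. Per transcript-matching read Zfp65, Zfp277, Zfp488 and Zfp959 had log2 ratios of 0.44, 0.63, 0.51 and 0.67 at 24 to 30 nt, all below 2-fold. Under that scaling and per read listed, Zfp781 was the 1 member past 2-fold higher at this length (backgrounds 1.46% and 1.57%).

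Among members with 500 reads or more, the lowest ratio at both lengths was that of Zfp592, with 35 and 514 reads at 24 to 30 nt (log2 ratio -3.95, -4.49 to -3.46) and 45 and 166 at 31 to 37 nt (-1.96, -2.47 to -1.47). Per microRNA read it was the 1 member at least 2-fold lower at both lengths (background 0.991%), while per read listed and per transcript-matching read there were 3, with Zfp609 and Zfp324, the latter named after its values were seen (backgrounds 1.99% and 2.47%). Zfp687, whose protein acts in a chromatin complex with that of Zfp592, had 148 and 353 reads (-1.33) and 203 and 151 (0.35, which is -0.22 per transcript-matching read). Zfp609 had 459 and 3548 reads (-3.02) and 1049 and 1608 (-0.69, which is -1.26 per transcript-matching read), and Zfp689 had 167 and 1003 (-2.66) and 282 and 287 (-0.10). In these genes the longer reads of Tdrkh-/- did not exceed those of the control by 2-fold.

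Zfp105 (69 and 640 reads, log2 ratio -3.29), Zfp428 (110 and 987, -3.24) and Zfp664 (794 and 6290, -3.06) were near Zfp609 at 24 to 30 nt, but were higher in Tdrkh-/- at 31 to 37 nt, with log2 ratios of 1.25, 1.24 and 1.62. In Zfp428 the longer ratio turned to -0.36 when each distinct sequence was counted once. In Zfp664 one 5' end accounted for 3381 of the 6290 control reads and had 50 in Tdrkh-/-. Of all members, Zfp641 was the one with 0 reads of 24 to 30 nt in Tdrkh-/-, against 116 in Tdrkh+/-, which is at least 40.7-fold lower when 3 counts are set for the 0; at 31 to 37 nt it had 81 and 7 reads. Zfp641 was singled out after its values were seen.

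The highest ratios at 31 to 37 nt after Zfp781 were those of Zfp790, with 7040 reads in Tdrkh-/- and 191 in Tdrkh+/- (log2 ratio 5.13), Zfp369, Zfp65 and Zfp575. In Zfp790, a KRAB gene, 84.0% of the 24 to 30 nt reads were coding and 99.9% matched it alone. The sequence of its leading 5' end, at chr7:29824908-29824934 (+) in exon 3, is shown because it lies in the part that encodes the KRAB box.
Zfp790: Taccgagatgtcatgctggagaactac
This end had 95 and 215 reads of 24 to 30 nt and 3577 and 66 of 31 to 37 nt. It starts at base 415 of the transcript, and the KRAB pattern starts at base 346.

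The next comparison was by mRNA part, over reads in transcripts with a coding sequence. The 3' untranslated regions made up 45.7% of the bases of the members' representative transcripts and held 71.9% (71.6 to 72.2) of the Tdrkh-/- reads at 24 to 30 nt and 72.1% (71.9 to 72.3) of the Tdrkh+/- reads. Coding regions, 48.04% of bases, held 24.7% and 25.02%, and 5' untranslated regions, 6.28% of bases, held 3.41% and 2.87%. Some of these reads lie on other transcripts of the gene, whose bases are not counted; on the representative transcripts alone, which held 79.8% and 78.2% of the reads, 3' untranslated sequence held 66.3% and 65.9%, and coding sequence 30.2% and 31.2%. At 24 to 30 nt the shares on all transcripts thus differed by under 1 percentage point between the libraries. At 31 to 37 nt the 3' share was 68.9% in Tdrkh-/- and 75.8% in Tdrkh+/-, and the coding share 26.5% and 21.9%.

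In other hosts the 31 to 37 nt shares went the other way, with 73.9% and 65.1% in the 3' untranslated region and 22.99% and 31.1% in the coding region. The end of Zfp398 described above held 13639 of the 67536 long control reads of all members. Without it the members' 3' shares at this length were 67.5% in Tdrkh-/- and 69.5% in Tdrkh+/-, the coding shares 27.7% and 27.6%, and the ratio of 3' untranslated reads 4.92. The ratio of long reads was 8.33 in 5' untranslated, 5.09 in coding and 3.82 in 3' untranslated sequence of the members, against 3.69, 3.31 and 4.98 over all hosts. Without Zfp781, whose shared 5' reads are described above, the 5' untranslated ratio was 4.38 (4.15 to 4.64). By gene, 103 members (42.7%, other hosts 38.8%) had more than 50% of their 24 to 30 nt reads in the 3' untranslated region. In the coding region 99 did (41.1%, other hosts 47.1%), and in the 5' untranslated region 7 (2.90%, other hosts 1.53%).

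**Figure D4:**
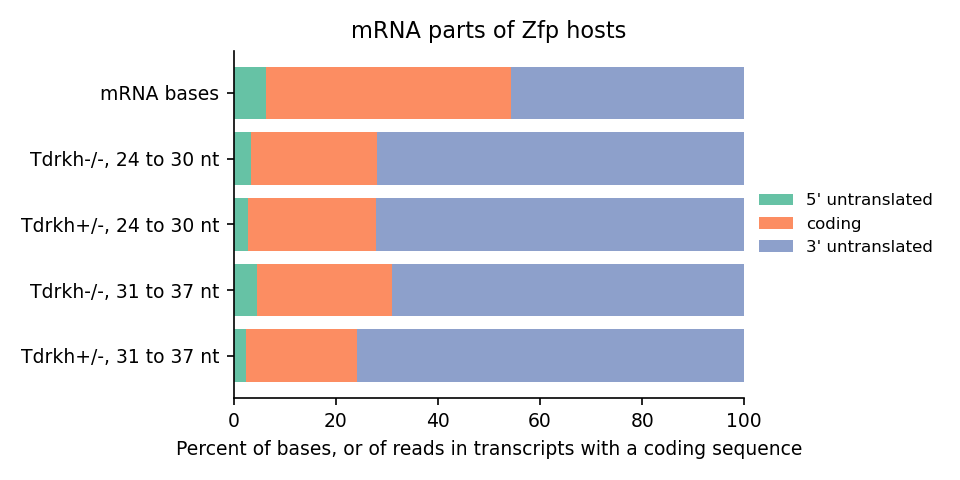
Share of the bases of the members' representative transcripts (top bar) and of their reads in each library and length window (other bars) in the 5' untranslated, coding and 3' untranslated part, as percent on the x axis. The 3' untranslated part holds 45.7% of bases and between 68.9% and 75.8% of reads.

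Some members were almost wholly coding. At 24 to 30 nt the coding share was 99.6% in Zfp3, 97.9% in Zfp407 and 97.9% in Zfp292, and their log2 ratios were -2.29, -1.46 and -1.40 at 24 to 30 nt and 2.56, 2.82 and 1.99 at 31 to 37 nt. The 5' untranslated share was largest in Zfp781 (85.4%), Zfp146 (41.6%) and Zfp217 (37.9%). Zfp146, a protein made of little but fingers, had 652 and 611 reads at 24 to 30 nt (log2 ratio 0.02) and 1286 and 102 at 31 to 37 nt (3.58). Zfp217, a partner of CoREST-type corepressors, had 1880 and 3594 reads (-1.01) and 3703 and 407 (3.11). Mostly coding and mostly 3' hosts therefore both showed the shift to longer reads.

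Within the coding region, the finger array (from the first to the last finger found, in 225 members whose representative transcript encodes it) covered 59.2% of bases and held 68.9% (68.3 to 69.4) of the coding Tdrkh-/- reads at 24 to 30 nt and 68.8% (68.4 to 69.2) of the Tdrkh+/- ones. Of longer coding reads it held 64.9% and 67.5%. In KRAB members the array covered 59.0% of bases and held 61.8% and 59.0% of the shorter reads and 47.5% and 55.9% of the longer ones. The 47.5% is of 25783 longer coding Tdrkh-/- reads, of which 5522 lay in the KRAB box of Zfp790 alone. The array share without Zfp790 was not computed. The KRAB box, taken as 126 nt from the start of the pattern, covered 7.002% of the coding bases of the 106 members whose representative transcript encodes it and held 7.91% and 11.7% of their coding 24 to 30 nt reads. At 31 to 37 nt it held 25.6% in Tdrkh-/- and 10.2% in Tdrkh+/-. Zfp790 alone supplied 5522 of the 6526 long Tdrkh-/- reads there, and without it the shares were 5.23% and 6.66% for the longer reads and 5.69% and 8.73% for the shorter ones.

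Although these genes are paralogs, few reads were shared among Zfp genes alone. In Tdrkh-/- and Tdrkh+/- respectively, 84.9% and 92.6% of 24 to 30 nt reads matched 1 gene, 0.390% and 0.482% matched several genes that were all Zfp genes, 9.56% and 3.58% were shared with other genes, and 5.11% and 3.30% were repeat-shared. Sequences that several Zfp genes share with a further gene fall under shared with other genes or repeat-shared. Over all hosts 80.0% and 91.5% of 24 to 30 nt reads matched 1 gene, and 4.19% and 1.47% were repeat-shared. A further 15.8% and 7.05% of host reads were otherwise shared, not among Zfp genes alone. Among the members' 31 to 37 nt reads the repeat-shared were 4.50% and 1.42%. In 184 members over 90% of reads were their own, and 138 had no repeat-shared read. The like counts over all hosts were not computed. The median share of own reads was 95.4% in members with a KRAB box and higher still in those without. The lower quartiles were 54.2% and 98.8%.

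Reads of these classes had different ratios. For sequences in 1 gene the ratio was 0.372 (0.370 to 0.375) at 24 to 30 nt and 4.05 (4.01 to 4.08) at 31 to 37 nt. For repeat-shared sequences it was 0.630 (0.610 to 0.650) and 13.95 (13.1 to 14.9). For sequences shared with other genes it was 1.08 (1.06 to 1.11) and 10.03 (9.58 to 10.5). Sequences shared among Zfp genes alone had ratios of 0.328 (0.295 to 0.364) and 14.4 (12.4 to 16.8). Over all hosts the repeat-shared ratios were 1.16 and 10.2.

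Of the 24 to 30 nt family-shared sequences, the most read one of each of 4 pairs or groups of members is shown, a choice made after their values were seen.
Zfp65 and Zfp712: Tgtggccattgatttctctgaagagga
Zfp65 and Zfp738: Tactggagagaaacattacaattgtgga
Zfp109, Zfp111, Zfp114 and Zfp235: Tcaaagagaagagaacaatgaccaagtt
Zfp110 and Zfp369: Cacctgagaactcatactggagctaagccc
The first 3 had 14, 5 and 0 reads in Tdrkh-/- and 258, 69 and 122 in Tdrkh+/-, and the last went the other way, with 54 and 4. The sequence of Zfp109 also matched Zfp93 and Zfp108, which were under the minimum, so 6 Zfp genes hold it; the members among them lie on chromosome 7 between 24081924 and 24316666. A 31 nt sequence of Zfp65 and Zfp738 had 1395 reads in Tdrkh-/- and 18 in Tdrkh+/-, of 2757 and 182 long family-shared reads in all.

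Repeat-shared reads were called by exact match of the whole read. Reads at the printed Zfp317 end therefore count as its own, though their first 20 nt occurred in 487 genes in sense. So defined, repeat-shared reads sat in a few members. They were more than 50% of the 24 to 30 nt reads in 5 members (Zfp575, Zfp706, Zfp934, Zfp277 and Zfp101; 2.07% of members, 1.15% of hosts). In Zfp575, Zfp706 and Zfp934 they made up 96.4%, 89.4% and 84.7%, and these 3 genes, on chromosomes 7, 15 and 13, share one repeat. Its most read 24 to 30 nt sequence follows.
Zfp575, Zfp706 and Zfp934: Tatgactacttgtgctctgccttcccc
This sequence occurred in 22 genes in sense and 11 in antisense, with 1207 reads in Tdrkh-/- and 12324 in Tdrkh+/-. All reads that start at its 5' end numbered 6983 and 20614 at 24 to 30 nt and 20198 and 1355 at 31 to 37 nt, most often 31 nt in Tdrkh-/- and 27 nt in Tdrkh+/-.

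The 3 genes were close in their short-read ratios and less so in the long ones: the log2 values were -0.94, -0.98 and -1.002 for short reads and 4.07, 3.41 and 3.63 for long reads, and they are not independent hosts. On reads that matched 1 gene, which were 2.16%, 2.28% and 7.91% of their 24 to 30 nt reads, the 31 to 37 nt log2 ratio turned to -1.30 in Zfp575 and -0.32 in Zfp706 and was 2.03 in Zfp934.

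The 5' ends were compared to see at which positions the longer reads began. Of 31 to 37 nt reads in Tdrkh-/- that matched 1 gene, 72.8% began where a 24 to 30 nt read of the control library also began. With starts moved by 1 to 10 nt in either direction, the median share was 31.3% and the largest 45.6%. Each library read 388 ends, in 73 members, 50 times or more, and the reads there averaged 31.3 nt in Tdrkh-/- and 28.5 nt in Tdrkh+/-; the median difference was 2.29 nt, and the reads were longer in Tdrkh-/- at 362 ends (93.3%; 92.4% of ends over all hosts). The lengths thus differed at shared starts.

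Single ends show the range. At the Zfp740 end printed above the counts were 1822 and 11462 of 24 to 30 nt and 389 and 40 of 31 to 37 nt, most often 30 nt in Tdrkh-/- and 29 nt in Tdrkh+/-. At a second Zfp866 end (Taaatgtagtaagatccagtactgtagcc, 6 bases before the printed one and shown for that contrast) they were 22 and 213 of 24 to 30 nt and 3865 and 80 of 31 to 37 nt, most often 35 and 29 nt. The printed Zfp866 end, by comparison, had 1870 and 3417 short and 896 and 219 long reads, most often 29 and 28 nt. In Tdrkh-/- the most frequent reads of both ends stopped at the same base of the transcript, 1957, so their lengths differ by the 6 bases between the starts; in Tdrkh+/- they stopped at bases 1951 and 1956.

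U was the first base of 80.1% (Tdrkh-/-) and 84.0% (Tdrkh+/-) of reads at 24 to 30 nt, and of 80.9% and 80.7% of the longer reads. The base of the mRNA just after the 3' end was U for 59.5% of 31 to 37 nt reads and 57.0% of 24 to 30 nt reads in Tdrkh-/-, against medians of 22.97% and 25.2% at the next 2 to 10 bases. In Tdrkh+/- it was U for 49.9% of longer reads but 28.3% of 24 to 30 nt reads, whose median at the following bases was 26.4%. Counted by distinct sequence, the shares for longer and shorter reads were 47.7% and 46.3% in Tdrkh-/- and 34.6% and 29.4% in Tdrkh+/-. Without the leading Zfp398 end, the Tdrkh+/- share by reads was 37.4% for the longer reads.

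Reads were concentrated: in the median member the leading 5' end held 14.5% of 24 to 30 nt reads and the leading 10 ends 55.1%, and in 11 members 1 end held more than 50%. Per length, and over reads that lay on the representative transcript (the longest complete coding model of the gene), the members had a median of 97.3 reads of 24 to 30 nt per kb, beside 102.7 in other hosts, with a range from 5.35 to 8648 in Zfp740.

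Antisense reads were rare in most members. The ratio of antisense to sense 24 to 30 nt reads had a median of 0.0104 and was highest in Zfp488 (5.04), Zfp738 (1.52) and Zfp410 (0.84), the last the gene of a regulator of Chd4. Zfp488 alone supplied 8066 (Tdrkh-/-) and 2361 (Tdrkh+/-) of the 15939 and 11096 antisense reads of this length in all members. Its longer antisense reads numbered 27213 and 1191. Of read pairs on opposite strands that overlapped, weighed by reads, 31.03% and 18.4% overlapped by 10 nt at 24 to 30 nt. At 31 to 37 nt the values were 24.5% and 28.7%, and over all hosts those at 24 to 30 nt were 41.6% and 22.2%. By positions the members' values at 24 to 30 nt were 5.09% and 5.17%, so the read-weighted values rest on a few abundant pairs.

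Members with a KRAB box and those with fingers alone were set side by side. The 109 KRAB members had a median log2 ratio of -1.17 for the shorter reads, where 66 (60.6%) were 2-fold lower or more, and of 2.30 for the longer reads, where 98 (89.9%) were 2-fold higher or more. The 127 members with fingers and no KRAB box had medians of -1.50 and 1.82, with 103 (81.1%) and 110 (86.6%). The backgrounds over all hosts were 71.1% and 71.8%. For the shorter reads the KRAB members thus lay below the background and the others above it. For the longer reads both classes lay above it. KRAB members were also less abundant: the median gene had 321 of the shorter reads, against 583 in the other class. Own reads were fewer in KRAB members (76.6% and 86.6% of 24 to 30 nt reads, against 91.6% and 95.7%). Whether this share or the abundance goes with the ratios of the classes was not tested.

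Clusters on the chromosomes held members of unlike level. The largest run, 11 members on chromosome 7 from Zfp84 to Zfp146 (chr7:29768552-30169750, 8 with a KRAB box), ranged from 181 to 4471 reads. Its log2 ratios ran from -2.004 to 0.02 at 24 to 30 nt and from 1.13 to 5.13 at 31 to 37 nt, and all 11 were at least 2-fold higher at the longer size. Over all hosts, 71.1% were at least 2-fold lower at 24 to 30 nt and 71.8% at least 2-fold higher at 31 to 37 nt. Over all members the shares were 70.5% and 88.0%. The next runs are the extremes, with the lowest and highest median log2 ratio at 24 to 30 nt among runs of 4 or more members. Of 4 neighbours at chr7:127342795-127449158 (Zfp768, Zfp747, Zfp688 and Zfp689), all had 24 to 30 nt ratios past 2-fold lower and their median log2 ratio was -2.69. Of 4 KRAB genes at chr8:71882019-71993792 (Zfp709, Zfp882, Zfp617 and Zfp961), 1 was, with a median of -0.28, and all 4 were past 2-fold higher for the longer reads.

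Genes listed here as KRAB partners were hosts as well. Besides Trim28, Setdb1 and Cbx5 these were Atf7ip, Cbx1, Cbx3, Morc3, Smarcad1, Dnmt1, Uhrf1, Chd3, Chd4, Hdac1, Hdac2, Trim24, Trim33, Smchd1, Ehmt1, Ehmt2, Suv39h1 and Suv39h2. Whether each acts with KRAB proteins was not examined. All 21 had at least 100 reads, with medians of -1.16 and 1.29. At 24 to 30 nt 13 (61.9%, background 71.1%) were down by 2-fold or more. At 31 to 37 nt 13 (61.9%, background 71.8%) were up by 2-fold or more. With 21 genes no difference from the backgrounds is read from these counts. Cbx5, the gene of the heterochromatin protein HP1 alpha, had 21050 and 42403 reads at 24 to 30 nt and 45763 and 4778 at 31 to 37 nt (log2 ratios of -1.08 and 3.19). Trim28 had 431 and 829, then 510 and 256 (-1.02 and 0.92), and Setdb1 had 231 and 364, then 377 and 196 (-0.73 and 0.87). Among other named zinc finger families, 34 Zbtb hosts had medians of -1.42 and 2.14, 17 Zscan and Zkscan hosts -1.91 and 1.86, and 13 hosts of the Zdhhc palmitoyltransferases, whose finger does not bind DNA, -1.44 and 1.77.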

How the data were processed

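The values deposited by the authors are raw read counts of distinct sequences of 18 to 40 nt, 1 table per library; Bowtie and the build mm9 are named in the submitters' processing notes, and per the labels' protocols RNA of testes was gel-purified and sequenced on a Genome Analyzer II. How adapters were trimmed or reads filtered is not given in the sources used here.

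Each sequence was matched end to end without mismatches, on either strand, to GENCODE M21 transcripts (GRCm38) with Numba 0.67.0 in Python 3.11.15 (NumPy 2.4.6, pandas 2.3.3), intervals came from SciPy 1.17.1 and figures from Matplotlib 3.10.9. Of reads, 51.5% (Tdrkh-/-) and 46.4% (Tdrkh+/-) matched. Matches to structural RNA were set aside, and 18 to 25 nt reads in microRNA genes were the scale. The mRNA part is that of the 5' end on the first transcript that matched, taking the longest complete coding model first. Ratios carry exact conditional binomial and shares Wilson 95% intervals; a count of 0 was set to 3 for a ratio. The calculation was tested on simulated data.

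Named genes are the 10 most abundant members, and among those with 500 reads the 5 highest and lowest ratios per window, the 3 largest coding, 5' untranslated, repeat-shared and antisense values, and 2 on each side of the minimum. Members, lists and rules were chosen with earlier results of these data known.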

Additional observations from a re-analysis of the deposited data

Results flagged for a closer look

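Both length ranges outside the windows held reads of the members that were more frequent in Tdrkh-/- than in the control library. At 18 to 23 nt there were 24371 reads in Tdrkh-/- and 10928 in Tdrkh+/-, a ratio per microRNA read of 2.12 (2.07 to 2.17; all hosts 2.04), with 167 of 241 members (69.3%, all hosts 66.5%) higher. At 21 nt the members had 8270 and 1800 reads. At 38 to 40 nt there were 68701 and 7790 reads, a ratio of 8.38 (8.19 to 8.58; all hosts 5.67), with 235 of 241 members (97.5%, all hosts 92.5%) higher. The tables end at 40 nt, so longer reads were not analysed here.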

How the results depend on the processing

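No paired analysis was possible because each genotype had 1 library; for the same reason no library could be left out. The direction of both summed ratios and both medians was the same under all alternatives tried; main values are a ratio of 0.406 and 4.40, medians of -1.37 and 2.08, counts of 170 and 212, a 3' untranslated share of 72.1%, a coding share of 24.9% and a repeat-shared share of 3.84% (24 to 30 nt, both libraries). Counting each distinct sequence once moved the 31 to 37 nt values most: ratios 0.279 and 1.61, medians -1.998 and 0.56, 62 members past 2-fold at 31 to 37 nt, and shares of 59.3%, 36.3% and 0.260%. Without sequences read once in a library they were 0.424 and 4.77, -1.20 and 2.33, with shares of 72.7%, 24.3% and 4.01%. With windows of 26 to 28 and 33 to 36 nt they were 0.252 and 8.06, -2.02 and 2.61, with shares of 71.0%, 25.96% and 4.08%. With sequences in 1 gene they were 0.372 and 4.05, with a median of 1.95 at 31 to 37 nt and shares of 71.6% and 25.6%. Per read listed, ratios were 0.303 and 3.28 and medians -1.79 and 1.66; per transcript-matching read they were 0.273 and 2.95, and -1.94 and 1.51. A minimum of 20 reads gave shares of 71.5% and 25.3%. A minimum of 500 reads left fewer genes, of which 82 and 100 were past 2-fold, and shares of 75.3%, 22.1% and 4.13%. Repeat-shared reads were 6.45% with more than 5 genes as the definition and 0.0712% with more than 50.

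Of 438 named gene values under alternatives, 99 stayed within 0.1 of the main log2 ratio and 328 moved by more. Scaling per read listed or per transcript-matching read lowers every log2 ratio by 0.42 or 0.57. Every value under those scalings is therefore among the 328 by construction. The remaining 11 values were past 2-fold in the main setting and changed sign. Values under 2-fold in the main setting that changed sign are not counted in these 11, as in Zfp142 at 31 to 37 nt by distinct sequence. Counted by distinct sequence, log2 ratios at 24 to 30 nt were -0.86 in Zfp65, -0.94 in Zfp781, -0.74 in Zfp277 and -0.65 in Zfp488, and at 31 to 37 nt -0.36 in Zfp428, -0.26 in Zfp575, -0.70 in Zfp706 and -0.011 in Zfp410. On sequences in 1 gene they were -1.30 in Zfp575, -0.32 in Zfp706 and -0.75 in Zfp932 at 31 to 37 nt. By construction, the distinct count gives each sequence the same weight whatever its number of reads. Apart from the shifts by scaling, the cause of the other changes was not tested. The ratios without the leading 5' end of Zfp398, Zfp740, Zfp317 and Zfp65, the part values without Zfp781 or that Zfp398 end, and those on representative transcripts were added after seeing the data. Members near 100 reads carry the widest counting intervals.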
